A study of Mus musculus with 4 samples.

Results

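The well-expressed Zfp genes of mouse cortical astrocytes were chosen by symbol and by wild-type level: protein-coding genes named Zfp followed only by digits, with at least 500 counts in each wild-type library. Of 365 such protein-coding symbols in a table of 53379 genes, 159 passed this floor. The study compared cultured astrocytes of 2 genotypes, wild type and Npas3-/-, both of the C57BL/6 strain, with 2 libraries each. Cells of both genotypes came from the cortex of newborn mice (postnatal day 0), were dissociated with papain, shaken to remove other cells, replated and harvested at day 14 in vitro. The labels give the mutant genotype as Npas3-/- and describe neither the deleted region nor how many mice were pooled. The libraries are called WT1, WT2, KO1 and KO2 here, after the genotype and replicate number in the titles.

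Zfp symbols mark proteins with zinc fingers, most of them of the C2H2 kind, in which a pair of cysteines and a pair of histidines hold a zinc ion and a short helix contacts the DNA bases. Many members of the family are arranged in tandem on chromosomes and carry a KRAB domain, which binds the corepressor Trim28 and through it the histone methyltransferase Setdb1 and heterochromatin protein. Others lack KRAB and act as activators, ubiquitin or SUMO ligases or RNA-binding proteins, and several are needed in neural development.

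Coding sequences of 1 finger and the linker behind it show how far the base composition of the genes differed while the fingers kept their frame. The stretches are given 5′ to 3′ on the coding strand of mm10, and capitals mark the 4 codons of the zinc-binding cysteines and histidines. Among genes with a finger of this spacing, with 1 chromosome left out, the first 3 have the lowest transcript GC content and the next 3 the highest, and Zfp146 and Zfp536 were chosen after their values were seen.
Zfp266, chr9:20499599-20499679 (minus strand): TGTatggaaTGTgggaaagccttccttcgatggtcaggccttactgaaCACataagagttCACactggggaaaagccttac
Zfp871, chr17:32775453-32775533 (minus strand): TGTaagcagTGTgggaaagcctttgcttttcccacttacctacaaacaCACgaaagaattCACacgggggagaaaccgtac
Zfp60, chr7:27748431-27748511 (plus strand): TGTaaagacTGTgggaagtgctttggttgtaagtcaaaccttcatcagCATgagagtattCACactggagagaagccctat
Zfp787, chr7:6132885-6132965 (minus strand): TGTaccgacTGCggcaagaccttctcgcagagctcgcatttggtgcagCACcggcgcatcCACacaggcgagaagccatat
Zfp628, chr7:4918886-4918966 (plus strand): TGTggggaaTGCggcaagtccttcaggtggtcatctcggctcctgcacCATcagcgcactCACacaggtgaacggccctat
Zfp771, chr7:127253856-127253936 (plus strand): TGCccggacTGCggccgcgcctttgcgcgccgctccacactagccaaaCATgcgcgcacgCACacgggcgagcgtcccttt
Zfp146, chr7:30162316-30162396 (minus strand): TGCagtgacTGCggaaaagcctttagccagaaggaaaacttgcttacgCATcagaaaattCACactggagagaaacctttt
Zfp536, chr7:37569516-37569596 (minus strand): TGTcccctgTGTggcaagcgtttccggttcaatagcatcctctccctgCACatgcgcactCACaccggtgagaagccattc
The 81 bases held 46.9%, 46.9% and 43.2% GC in Zfp266, Zfp871 and Zfp60. In Zfp787, Zfp628 and Zfp771 they held 59.3%, 59.3% and 70.4%. Zfp146 stood at 43.2% and Zfp536 at 56.8%. Over the 84 genes with such a stretch its GC content ran from 35.8% to 70.4%, with a median of 53.1%, and followed that of the whole transcript with a Spearman rho of 0.73, as a description across genes.

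Promoters were searched, 250 bases before to 50 after the gene start (RefSeq, GRCm38.p6), for the element bound by Zfp143, itself among the 159 genes, spelled as ACTACA, any 2 bases and TCC. Windows of 6 genes are given below on the gene's strand, with the element in capitals, because they come from genes that were lower and from genes that were higher in Npas3-/-; those genes were chosen after their values were seen.
Zfp444, chr7:6172362-6172396 (plus strand): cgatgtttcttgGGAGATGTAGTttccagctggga
Zfp60, chr7:27731332-27731366 (plus strand): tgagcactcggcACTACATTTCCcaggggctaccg
Zfp383, chr7:29908464-29908498 (plus strand): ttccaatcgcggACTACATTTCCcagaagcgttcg
Zfp358, chr8:3493101-3493135 (plus strand): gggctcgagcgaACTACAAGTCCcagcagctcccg
Zfp317, chr9:19621855-19621889 (plus strand): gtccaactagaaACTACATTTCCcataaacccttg
Zfp317, chr9:19621899-19621933 (plus strand): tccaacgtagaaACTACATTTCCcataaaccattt
Zfp219, chr14:52019697-52019731 (minus strand): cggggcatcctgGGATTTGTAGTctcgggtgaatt
Zfp317, with the element in 2 places, Zfp60 and Zfp383 were lower in Npas3-/-, and Zfp444, Zfp358 and Zfp219 were higher. Of 124 genes with a promoter in the RefSeq table, 15 (12.1%) held the element on either strand. The element was in 8 of 48 lower genes (16.7%) and in 3 of 14 higher genes (21.4%). It was found in 5.01% of protein-coding genes past the same floor and in 2.27% of all genes. The core ACGTG, bound by bHLH-PAS proteins paired with ARNT, was in 24.2% of the Zfp promoters and in 30.2% and 21.8% of those sets. The palindrome CACGTG, which contains that core, was in 5.65%, against 12.5% and 8.09%. These 3 motifs were chosen after the data were seen, and a match is a description of letters and not of binding.

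Depth was similar, at 82965565 to 86932708 counts per library. Npas3 itself, a bHLH-PAS transcription factor, had 5129 and 8739 counts in WT1 and WT2 and 2055 and 1386 in KO1 and KO2, so its transcript was reduced and not absent in the libraries labelled Npas3-/- (log2 fold change -1.82 ± 0.33 SE, edgeR adjusted p = 0.0181). With the correction for GC content and length described further on it was not called (-0.57 ± 0.22, adjusted p = 0.154). Which part of the gene was deleted is not stated, so these whole-gene counts are a weak check of the labels. Astrocyte markers summed to 3079 to 3901 CPM (counts scaled to a common library size) in wild type and 4876 to 4879 in Npas3-/-. Of the 9 markers, Gfap and Aldoc were higher and Aqp4, Slc1a2 and Gja1 lower. With the correction Slc1a2 was not called (-0.41, adjusted p = 0.415), and Aqp4 and Gja1 were still called but moved from -4.01 to -1.55 and from -2.58 to -1.28. Microglial markers summed to 2.19 to 3.70 CPM and endothelial ones to 2.03 to 4.35, with Mog at 0 in every library, while neuronal markers summed to 116 to 269 CPM, oligodendrocyte lineage markers to 1087 to 1509 (mostly Olig1) and fibroblast and mural markers to 100.3 to 149. The neuronal sum was mostly Stmn2 and Tubb3, with Rbfox3 and Snap25 at most 0.27 and 0.37 CPM. The fibroblast and mural sum was mostly Col1a1 and Pdgfrb, with Lum and Dcn at most 0.64 and 1.46 CPM. The part of these cells in the Zfp values was not tested. In a bulk culture, fewer cells of a type and less RNA per cell cannot be told apart.

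The 159 genes together took 0.492% and 0.577% of all counts in WT1 and WT2 and 0.391% and 0.368% in KO1 and KO2. Single genes were mostly lower in Npas3-/-: 63 fell and 17 rose at an adjusted p below 0.05 in edgeR's quasi-likelihood test over all 18838 genes tested, with a median log2 fold change of -0.40. Over all tested genes 33.1% were called, 21.5% lower and 11.6% higher, with a median of -0.070. Among the 10626 protein-coding genes past the same floor, 46.1% were called, 28.9% lower and 17.3% higher, with a median of 0.052. The 2 genotypes did not overlap in CPM for 86 genes on the lower side and 52 on the higher side, beside 40.1% and 35.7% of all tested genes (75.8% in either direction). They overlapped for the other 21 Zfp genes. Of the 10626 protein-coding genes past the same floor, 4449 were separate on the lower side and 4602 on the higher side, and 1575 overlapped.

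The floor used the wild-type counts, which also enter the fold change, so these counts describe the chosen genes and test nothing about them as a group. With the floor set on the Npas3-/- libraries instead, 110 genes passed, of which 21 were lower and 18 higher, and their median was 0.23. With no floor, 327 Zfp genes were tested, 119 were lower and 18 higher, and the median was -1.59. Just inside the floor stood Zfp809, Zfp235 and Zfp61, with 500, 516 and 517 counts in WT1. Just outside were Zfp58 and Zfp74 with 489 and 492 in WT1 and Zfp28 with 492 in WT2. The calls also rested on KO2: without it no gene of the 159 passed the threshold (67 were at an unadjusted p below 0.05), and at an adjusted p below 0.01 none did with all 4 libraries.

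Fold changes of the Zfp genes followed the GC content of the longest coding transcript, with a Spearman rho of 0.86 over the 159 genes. The same relation held across the 10626 protein-coding genes past the floor, where rho was 0.75. All of these genes share the 4 libraries. Over the Zfp genes rho was 0.76 with the GC content of the coding sequence, 0.72 with that of the 3′ UTR and -0.41 with transcript length.

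**Figure D1:**
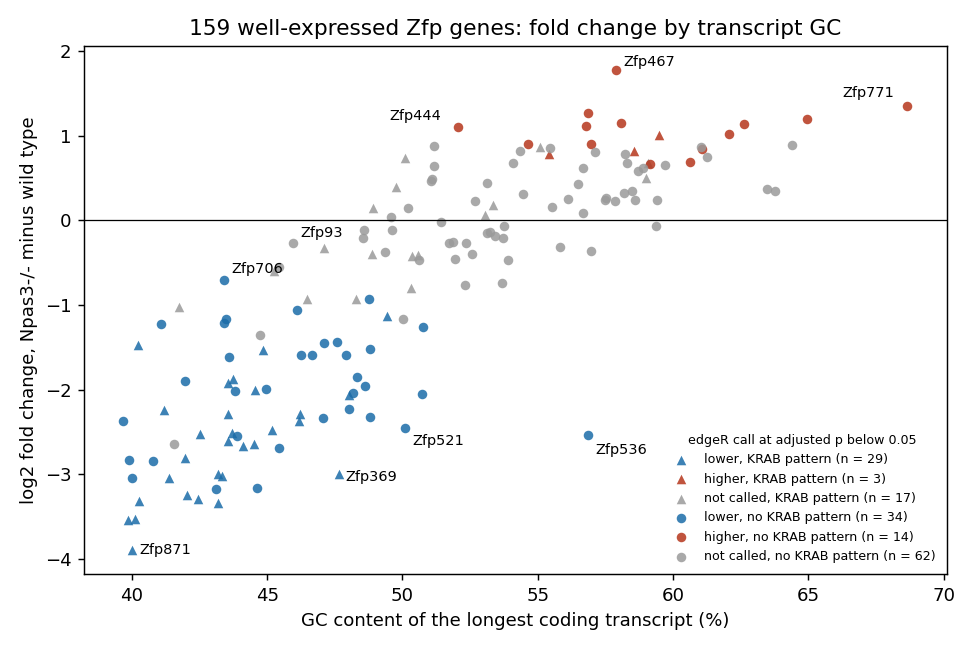
Each point is 1 of the 159 Zfp genes, with the GC content of its longest coding transcript in percent on the x axis and the fitted log2 fold change (Npas3-/- minus wild type) on the y axis; colour gives the edgeR call and triangles mark a KRAB pattern. Called lower genes lie almost all on the left, called higher genes on the right, and Zfp536 is the lower gene at high GC.

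Of the 53 genes of lowest GC content (39.7% to 47.1%), 46 fell, none rose, and the median log2 fold change was -2.37. In the middle 53 genes (47.1% to 53.7%), 16 fell and 1 rose, with a median of -0.39. Of the 53 genes of highest GC content (53.7% to 68.7%), 1 fell and 16 rose, with a median of 0.67. Fold changes of other protein-coding genes past the floor also rose with GC content. In the lowest GC range, 2974 other genes had a median of -1.69 and 69.8% were lower, beside 86.8% of the Zfp genes. In the middle range 3780 other genes had a median of 0.069. Of these 17.4% were lower and 13.0% higher, beside 30.2% and 1.89% of the Zfp genes. In the highest GC range 3384 other genes had a median of 0.75 and 37.5% were higher, beside 30.2% of the Zfp genes. These differences between Zfp and other genes were not tested.

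The composition of the Zfp counts shows the shift directly. The 53 low-GC genes held 27.2% and 37.5% of the Zfp counts in WT1 and WT2, and 11.8% and 9.77% in KO1 and KO2. For the 53 high-GC genes these shares were 38.0%, 29.5%, 58.5% and 65.1%. Counting error alone was small: Wilson 95% intervals of these shares were no wider than ± 0.166 percentage points.

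Libraries of 1 genotype differed along the same axis. Among the low-GC genes WT2 was above WT1 for 50 of 53 genes, with a median log2 ratio of 0.68, and among the high-GC genes the median was -0.21. Over the 159 genes the log2 ratio of WT2 to WT1 had a rho of -0.75 with GC content, and that of KO2 to KO1 had 0.39. The wild-type libraries were more than 2-fold apart for 16 genes, among them Zfp148 (15.3 and 75.2 CPM) and Zfp26 (6.75 and 32.6 CPM). The Npas3-/- libraries were more than 2-fold apart for 6 genes, among them Zfp579 (8.46 and 33.9 CPM) and Zfp346 (24.8 and 8.58 CPM). Zfp579, like Zfp93, Zfp146, Zfp236, Zfp358, Zfp367, Zfp369 and Zfp869, was chosen after its values were seen. Whether GC-dependent capture of RNA in single libraries makes part of the difference between genotypes was not tested, and with 2 libraries a genotype it cannot be told apart from a difference in the cells.

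**Figure D2:**
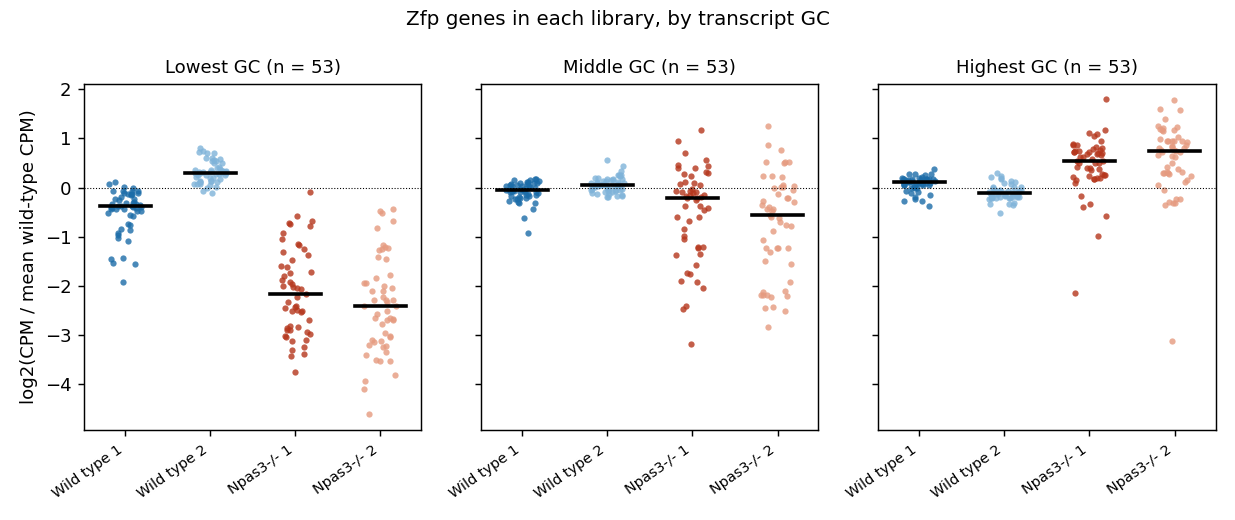
For the 53 genes each of lowest, middle and highest GC content, points show log2 of a gene's CPM over its mean wild-type CPM in the 4 libraries, and black lines mark the medians. WT1 and WT2 already stand apart among the low-GC genes, with the medians of KO1 and KO2 below both, and the order turns among the high-GC genes.

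A correction that fits each library's deviation on GC content and length, and which also removes true differences that follow either, left 10 of the 159 genes lower and 4 higher. Over all 18817 genes so tested 8.8% were called, 3.08% lower and 5.72% higher, and among protein-coding genes past the same floor 13.3%, 4.56% and 8.69%. The median of the Zfp genes moved to -0.12, rho with GC content to 0.27, and 44 genes changed sign. The lower genes were Zfp106, Zfp146, Zfp236, Zfp367, Zfp369, Zfp462, Zfp521, Zfp536, Zfp869 and Zfp91, and all 10 were lower without the correction too. Zfp444 and Zfp651 were higher with and without it. Zfp451 and Zfp706 were lower without it and higher with it. None of the 159 passed the corrected test when KO1 or KO2 was left out (43 and 32 at an unadjusted p below 0.05).

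**Figure D3:**
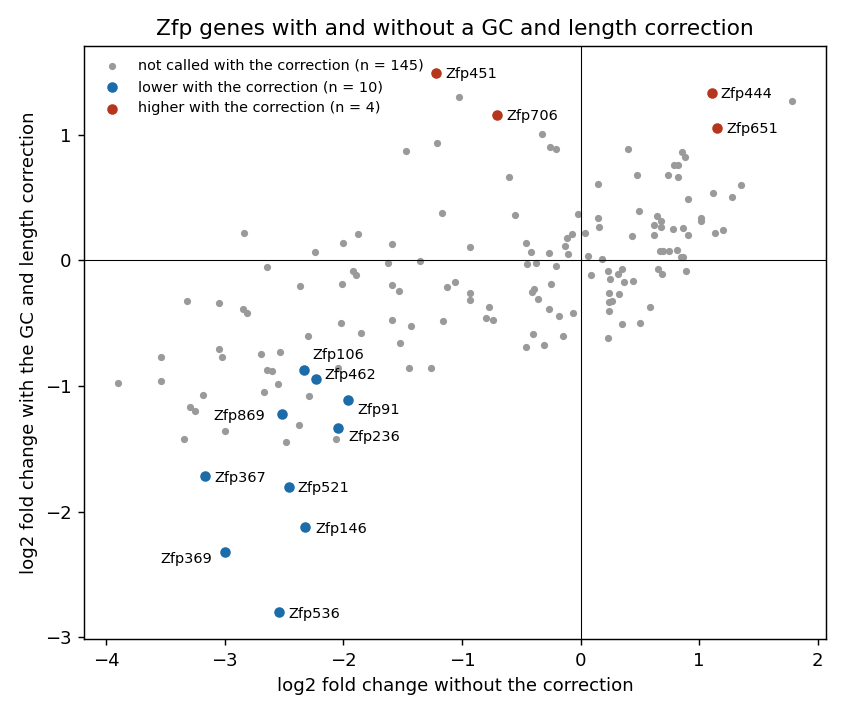
Each point is 1 of the 159 Zfp genes, with its log2 fold change without (x axis) and with (y axis) the GC and length correction; coloured points passed the threshold with it. The 10 lower genes reach from -0.87 for Zfp106 to -2.80 for Zfp536 on the corrected scale, and Zfp451 and Zfp706 lie in the upper left.

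Zfp536, a repressor that limits neuronal differentiation, went against the GC trend. It stood at 14.1 and 12.6 CPM in WT1 and WT2 and at 3.04 and 1.55 CPM in KO1 and KO2. Both Npas3-/- libraries were well below both wild-type ones, although its transcript held 56.8% GC, where most Zfp genes were at or above the wild-type level. Its log2 fold change was -2.54 ± 0.43 (SE, n = 2 per genotype, edgeR adjusted p = 0.0170), and -2.80 ± 0.40 (adjusted p = 0.0249) with the correction. The gene (ENSMUSG00000043456.16, chr7:37472135-37773641, mm10) overlaps 3 other annotated genes, and the strand setting of the counting is not given in the sources used here.

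Among the 13 genes with a part in neural development, 8 fell and 1 rose, with a median of -1.85, beside 21.5% lower and 11.6% higher over all tested genes. With the correction 3 were lower and none higher, with a median of -0.48, beside 3.08% lower and 5.72% higher over all genes so tested. Among protein-coding genes past the same floor 28.9% were lower and 17.3% higher, and 4.56% and 8.69% with the correction. Zfp521, which drives embryonic stem cells toward neural progenitors, had 38.8 and 57.8 CPM in WT1 and WT2 and 9.06 and 8.49 in KO1 and KO2. The genotypes were far apart and the Npas3-/- libraries close together, and the log2 fold change was -2.46 ± 0.29 (adjusted p = 0.0130), or -1.80 ± 0.23 (adjusted p = 0.0246) with the correction. Zfp462, a chromatin regulator linked to neurodevelopmental disorder, had 38.8 and 42.4 CPM in wild type and 9.87 and 7.42 in Npas3-/-, and the wild-type libraries were nearly equal. It fell by 2.23 ± 0.27 on the log2 scale (adjusted p = 0.0130), and by 0.94 ± 0.19 (adjusted p = 0.0412) with the correction.

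Zfp24, needed for myelination, stood at 54.7 and 110 CPM in wild type and at 15.1 and 7.70 in Npas3-/-. Zfp148, which binds GC-rich promoters, had 15.3 and 75.2 CPM in wild type and 7.91 and 4.75 in Npas3-/-. In both genes the genotypes did not overlap, but WT1 was far below WT2. Their log2 fold changes were -2.85 ± 0.49 (adjusted p = 0.0173) and -2.84 ± 0.78 (adjusted p = 0.0434). With the correction they were -0.38 (adjusted p = 0.294) and 0.22 (adjusted p = 0.717). Zfp365, a partner of the schizophrenia-associated protein Disc1, Zfp704 and Zfp407 also fell, by 1.43, 1.85 and 2.04 on the log2 scale, with no overlap between genotypes. With the correction they were at -0.52, -0.58 and -0.86, and none was called (adjusted p = 0.0867, 0.0788 and 0.0968).

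Zfp703, a NET-family transcriptional repressor, was the neural gene that rose: 138 and 121 CPM in wild type and 207 and 213 in Npas3-/-. All Npas3-/- values lay above all wild-type ones (0.69 ± 0.19, adjusted p = 0.0426; corrected 0.072, adjusted p = 0.798). Its relative Zfp503, known from the developing striatum, had 23.2 and 18.2 CPM in wild type and 27.1 and 36.5 in Npas3-/- and was not called (0.62 ± 0.27, adjusted p = 0.132). Zfp423, a regulator of cerebellar and adipocyte precursors, was level at 58.5 and 58.9 CPM in wild type and 68.2 and 56.8 in Npas3-/-. Zfp335, needed for neural progenitors, overlapped between genotypes too (33.97 and 26.5 CPM against 33.6 and 24.2), and Zfp142 was not called (-0.74 ± 0.31, adjusted p = 0.115).

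Of the 13 genes listed as promoter and chromatin factors (Zfp423 is on both lists), 4 fell and 1 rose, with a median of -0.77. As shares these were 30.8% lower and 7.69% higher, beside 28.9% and 17.3% of protein-coding genes past the same floor. Over all tested genes 21.5% were lower and 11.6% higher. With the correction 1 of the 13 was lower and 1 higher, with a median of 0.057, beside 3.08% and 5.72% over all genes so tested. Zfp91, an E3 ubiquitin ligase, had 140 and 140 CPM in wild type and 41.4 and 30.2 in Npas3-/-. Its wild-type libraries were almost identical, and it fell by 1.96 ± 0.23 on the log2 scale (adjusted p = 0.0130; corrected -1.11 ± 0.16, adjusted p = 0.0248). Zfp281, a regulator of pluripotency, had 13.3 and 38.6 CPM against 3.46 and 2.26 (log2 fold change -3.18 ± 0.60, adjusted p = 0.0197; corrected adjusted p = 0.0992). Zfp318 fell by 1.999 on the log2 scale, with both Npas3-/- libraries at about 5.3 CPM.

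Zfp451, a SUMO ligase, had 12.8 and 19.7 CPM in wild type and 7.85 and 6.12 in Npas3-/-. It was lower by 1.22 ± 0.35 on the log2 scale (adjusted p = 0.0461), but its transcript is long and held 41.1% GC, and its corrected value was 1.49 ± 0.30 (adjusted p = 0.0411), so its direction depended on the correction. Zfp219, a partner of Sox9, rose from 114 and 113 CPM to 188 and 272 (1.02 ± 0.24, adjusted p = 0.0318; corrected 0.34, adjusted p = 0.253). Zfp410, known as an activator of Chd4, stood at 27.6 and 29.6 CPM in wild type and 29.4 and 29.3 in Npas3-/-. Chd4, named here after its values were seen, stood at 422 and 377 CPM against 484 and 405 (log2 fold change 0.15 ± 0.21). Zfp143 had 6.46 and 9.54 CPM in wild type and 4.64 and 1.64 in Npas3-/- (log2 fold change -1.35 ± 0.57, adjusted p = 0.120), with the Npas3-/- libraries further apart than the wild-type ones. Zfp609, Zfp827, Zfp217, Zfp263 and Zfp516 were not called, at log2 fold changes of -0.77, -1.16, -0.27, -0.11 and -0.070.

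**Figure D4:**
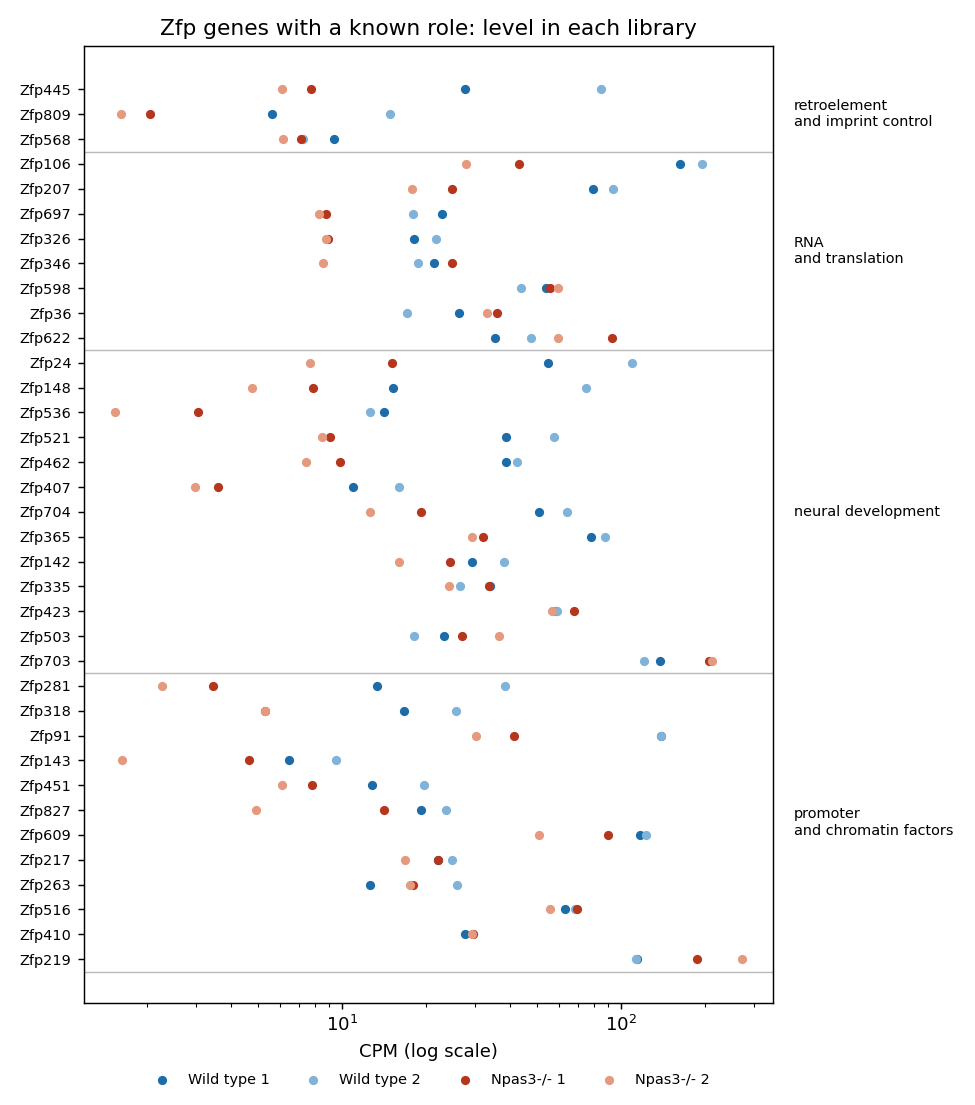
CPM (log scale, x axis) in the 4 libraries for the Zfp genes of 4 role groups, ordered within a group by log2 fold change. Zfp91, Zfp462 and Zfp521 show both Npas3-/- points far left of both wild-type points, and Zfp219 and Zfp703 show them to the right.

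Of 8 genes that act on RNA or in translation, 4 fell and none rose, with a median of -0.72, beside 21.5% lower and 11.6% higher over all tested genes. With the correction 1 was lower, with a median of -0.36, beside 3.08% lower over all genes so tested. Of protein-coding genes past the same floor, 28.9% were lower and 17.3% higher, and 4.56% and 8.69% with the correction. Zfp106, an RNA-binding protein needed by motor neurons, had 163 and 196 CPM in wild type and 43.2 and 27.9 in Npas3-/-. No library of 1 genotype came near the other, at a log2 fold change of -2.33 ± 0.29 (adjusted p = 0.0130; corrected -0.87 ± 0.15, adjusted p = 0.0320). Zfp207, a kinetochore and splicing factor, had 79.5 and 93.7 CPM against 24.9 and 17.8 (-2.02 ± 0.26, adjusted p = 0.0130; corrected adjusted p = 0.149). Zfp326, a subunit of a complex that couples transcription to splicing, fell by 1.17, and Zfp697, which overlaps 13 annotated genes, by 1.26. Zfp36 (tristetraprolin), which hastens the decay of AU-rich mRNAs and has fingers of another kind, had 26.2 and 17.1 CPM against 36.1 and 33.3 and was not called (0.68 ± 0.29, adjusted p = 0.118). Zfp598, the ligase that senses collided ribosomes, and Zfp622, a factor of large ribosomal subunit maturation, were not called either, at 0.24 ± 0.21 and 0.88 ± 0.30. Zfp346, which binds double-stranded RNA, overlapped between genotypes.

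All 3 genes for retroelement and imprint control that passed the floor carry a KRAB pattern. Zfp445, which protects imprinted methylation, had 27.6 and 85.3 CPM in wild type and 7.77 and 6.10 in Npas3-/- (log2 fold change -3.02 ± 0.58, adjusted p = 0.0204). Zfp809, which silences retroviral DNA, had 5.63 and 14.9 CPM against 2.05 and 1.62 (-2.48 ± 0.56, adjusted p = 0.0276). In both the wild-type libraries differed over 2-fold and the genotypes did not overlap, and with the correction the adjusted p was 0.180 and 0.0994. Zfp568, which silences a placental Igf2 transcript, was not called (-0.33 ± 0.32, adjusted p = 0.454).

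A KRAB A-box pattern was found in the encoded protein of 49 of the 159 genes. The pattern was set after the values had been seen and misses some KRAB proteins. Of the 49, 29 fell and 3 rose, with a median of -1.92 and a median transcript GC content of 45.2%. As shares these were 59.2% lower and 6.12% higher, beside 28.9% and 17.3% of protein-coding genes past the same floor. In the lowest GC range, where 29 of the 49 genes lay, 69.8% of 2974 other protein-coding genes past the floor were lower. Among the 110 genes without the pattern 34 fell and 14 rose, with a median of -0.14 and a median GC content of 52.3%. With the correction 2 of the 49 were lower and none higher, with a median of -0.26, and of the 110 without the pattern 8 were lower and 4 higher, with a median of -0.058. Among protein-coding genes past the same floor 4.56% were lower and 8.69% higher with the correction. Among the 53 low-GC genes the medians were -2.53 for 29 genes with the pattern and -1.95 for 24 without it, and with the correction -0.77 and -0.085. The order was not the same at higher GC content. Among the middle 53 genes the medians were -0.40 with the pattern (14 genes) and -0.37 without it (39), and -0.10 and -0.32 with the correction. Among the 53 high-GC genes they were 0.80 (6 genes) and 0.62 (47), and 0.29 and 0.072 with the correction. Genes with 10 or more fingers (69) had a median of -1.13, those with 4 to 9 (58) -0.035 and those with 0 to 3 (32) 0.19. With the correction these medians were -0.31, 0.014 and 0.060, and the median GC contents were 49.4%, 51.8% and 51.1%. These differences were not tested, and the finger ranges were chosen after the data were seen.

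The partners of KRAB proteins were read from a list of 21 corepressor genes, all tested: 10 were lower and none higher, with a median of -1.22. Beside them, 21.5% of all tested genes were lower and 11.6% higher, and 28.9% and 17.3% of protein-coding genes past the same floor. With the correction 1 was lower, Trim24, named for this call (-1.35 ± 0.24, adjusted p = 0.0338), and the median was -0.017. Over all genes so tested 3.08% were lower and 5.72% higher. Trim28, the direct partner of KRAB, had 288 and 187 CPM in wild type and 389 and 431 in Npas3-/-, higher in both but not called (0.79 ± 0.27, adjusted p = 0.0721). Setdb1, its histone methyltransferase, had 61.3 and 56.7 CPM against 42.6 and 40.2 (-0.51 ± 0.20, adjusted p = 0.0949). The smallest p-values belonged to Cbx5, which encodes heterochromatin protein 1 alpha, Pphln1, a subunit of the HUSH silencing complex, and the deacetylase Hdac2. They fell by 2.46, 2.29 and 2.50 on the log2 scale (adjusted p = 0.0130 each), and none of these 3 was called with the correction (adjusted p = 0.875, 0.0773 and 0.124).

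The lowest fold changes with separate genotypes belonged to genes of low GC content. Zfp871 had 16.4 and 52.9 CPM in wild type and 3.22 and 1.42 in Npas3-/- (log2 fold change -3.90 ± 0.73, adjusted p = 0.0197). Zfp266 had 42.7 and 72.1 CPM against 6.11 and 3.77 (-3.54 ± 0.41, adjusted p = 0.0130), and Zfp60 had 9.36 and 40.9 against 2.55 and 1.79 (-3.53 ± 0.76, adjusted p = 0.0254). Their transcripts held between 39.9% and 40.1% GC, and both knockout libraries were below both wild-type ones in each. Zfp317, Zfp26, Zfp719, Zfp867 and Zfp281 followed, between -3.34 and -3.18. With the correction none of these 8 was called, with Zfp266 nearest at an adjusted p of 0.0523.

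Other genes were lower with the correction as well as without it. Zfp367 had 41.4 and 41.7 CPM in wild type and 5.14 and 4.12 in Npas3-/-, with nearly equal libraries within each genotype (log2 fold change -3.17 ± 0.27, adjusted p = 0.0130; corrected -1.72 ± 0.22, adjusted p = 0.0246). Zfp369, a relative of a p75 neurotrophin receptor interacting factor, had 12.8 and 18.4 CPM against 1.73 and 2.19 (-2.99 ± 0.37, adjusted p = 0.0130; corrected -2.32 ± 0.32, adjusted p = 0.0246). Zfp146, a protein made up almost wholly of fingers, was lower with and without the correction (-2.33 and -2.13 on the log2 scale). Zfp236 and Zfp869 fell by 2.05 and 2.52, and by 1.34 and 1.23 with the correction.

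On the higher side Zfp467, a regulator of adipocyte and bone cell fate, changed most: 5.96 and 8.53 CPM in wild type and 25.1 and 24.7 in Npas3-/-. The Npas3-/- libraries were close together and far above both wild-type ones (1.78 ± 0.30, adjusted p = 0.0165; corrected 1.27 ± 0.29, adjusted p = 0.0545). Zfp771, of the highest GC content (68.7%), had 49.2 and 37.7 CPM against 91.9 and 130.6 (1.36 ± 0.27, adjusted p = 0.0217). Zfp593, Zfp580, Zfp787 and Zfp575 rose by between 1.11 and 1.27 on the log2 scale. Zfp651 had 52.6 and 70.4 CPM in wild type and 132 and 141 in Npas3-/- (1.15 ± 0.22, adjusted p = 0.0209; corrected 1.06 ± 0.21, adjusted p = 0.0412). Zfp444 had 22.8 and 20.96 CPM against 42.3 and 51.8 (1.10 ± 0.23, adjusted p = 0.0240; corrected 1.34 ± 0.23, adjusted p = 0.0310), and at 52.0% had the lowest GC content of the 17 higher genes.

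Per kb of transcript, the highest mean wild-type levels were those of Zfp428 (54.5 CPM per kb), Zfp703 (41.2), Zfp706 (39.9) and Zfp219 (37.6). Zfp428 had 84.0 and 44.9 CPM in wild type and 93.9 and 145 in Npas3-/-, and was not called (0.89 ± 0.38, adjusted p = 0.119). Zfp706, a small protein that restrains stem cell self-renewal, had 163 and 190 CPM against 107 and 109. It was lower by 0.70 ± 0.19 on the log2 scale (adjusted p = 0.0425) and higher by 1.16 ± 0.21 with the correction (adjusted p = 0.0338), so its direction too depended on the correction. At 39.7%, Zfp131 had the lowest GC content of the 159 and fell by 2.37 ± 0.36 (adjusted p = 0.0143; corrected adjusted p = 0.641).

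Of the 159 genes 84 lay in chromosome clusters, defined as 3 or more Zfp genes with gaps of at most 1 Mb, and 46 were on chromosome 7. Coordinates are of mm10. Of the 84 genes 36.9% were lower and 13.1% higher, beside 42.7% and 8.0% of the 75 genes in no cluster. Among protein-coding genes past the same floor these shares were 28.9% and 17.3%. Of other such genes 69.8% were lower in the lowest GC range, and 37.5% were higher in the highest. Differences between clusters and other genes were not tested. In chr9:19622102-20605409 all 5 genes fell, between -3.54 for Zfp266 and -1.47 for Zfp560, with a median of -3.32 and a median GC content of 40.3%. All 3 genes of chr18:23954692-24020810, Zfp397, Zfp35 and Zfp24, fell, with a median of -2.85. In chr17:32765496-33631779, 4 of 5 fell with a median of -2.53, from -3.90 for Zfp871, while Zfp414 stood at 0.59 and was not called. In chr7:27731389-28380253, 3 of 4 fell with a median of -2.82, from Zfp60 at -3.53, and Zfp36 was the remaining gene at 0.68. In chr7:29768552-30169750, 4 of 7 fell with a median of -2.06, between -2.997 for Zfp383 and -0.33 for Zfp568. Corrected medians of these 5 clusters were -0.33, -0.38, -0.42, -0.74 and -1.08.

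The other clusters mostly held genes of higher GC content, and few of their genes fell. An exception in GC content was chr7:12415153-12985714. Its median GC content was 48.1%, close to the 48.0% of chr7:29768552-30169750, yet its median log2 fold change was -0.43 against -2.06. In chr6:47819266-48623227, 4 of 8 genes rose with a median of 0.64, topped by Zfp467. The cluster's 1 gene of low GC content (45.4%), Zfp398, fell by 2.70 ± 0.43 (adjusted p = 0.0153). With the correction Zfp398 was at -0.75 and not called (adjusted p = 0.279). In chr7:6131491-7209998, 2 of 3 rose with a median of 1.10, from Zfp954 at 0.73 (not called) to Zfp787 at 1.14. In chr7:127233061-127885996, 1 of 8 rose, Zfp771, with a median of 0.34 and Zfp629 lowest at -0.21. In chr7:24081924-25227507, Zfp111 fell by 1.21, Zfp575 rose by 1.11 and the median of the 8 was 0.23. Of these neighbours, Zfp111 held 43.4% GC and Zfp575 56.8%. Of the remaining clusters of 3 or 4, chr5:143235163-143293623 ran from -0.41 (Zfp12) to 0.82 (Zfp316, called), and chr7:4915217-5053723 from -0.36 (Zfp865) to 1.20 (Zfp580, called). For chr11:58307069-59472474 the ends were -3.25 (Zfp867, called) and 0.23 (Zfp692). No gene was called in chr7:12415153-12985714, which ran from -1.03 (Zfp606) to 0.40 (Zfp446), or in chr15:75616679-76925448, which ran from -0.25 (Zfp251) to 0.87 (Zfp707).

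**Figure D5:**
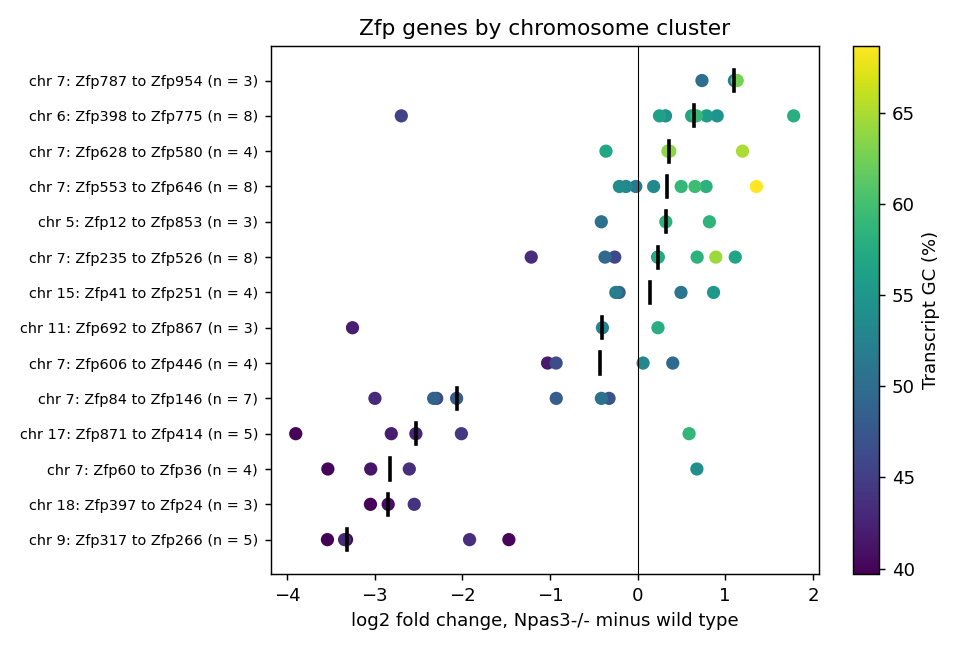
Log2 fold changes (x axis) of the Zfp genes in the 14 chromosome clusters with at least 3 of them, ordered by the cluster median (black lines), with colour for transcript GC content in percent. Dark points of low GC content lie to the left and light points to the right, also within a cluster, as for Zfp398 on chromosome 6.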

How the data were processed

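RNA was sequenced from 2 wild-type and 2 Npas3-/- astrocyte samples, and the authors deposited raw counts per Ensembl gene. The submitters' processing notes name HISAT2 2.1.0 and Trimmomatic 0.3.8, with featureCounts and the build mm10. Strand setting, annotation release and treatment of shared reads: not given in the sources used here. Of the 159 genes, 77 overlap another annotated gene, and reads shared with it or with a close paralogue make their counts uncertain. The labels do not say whether samples of a genotype came from separate cultures, and p-values therefore reflect only how far these samples differ, possibly for technical reasons.

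Symbols, transcripts, GC content and coding sequences came from GENCODE M21, in which 53274 of 53379 identifiers were found. The quasi-likelihood test of edgeR 4.0.16 (in R 4.3.3) was run on the counts with TMM, filterByExpr (minimum count 10) and no covariate, which left 2 residual degrees of freedom. P-values were adjusted by Benjamini-Hochberg over all tested genes, and every adjusted p in the text is from it unless another tool is named. With 2 against 2 samples an exact permutation test cannot go below 0.333. CPM used TMM-scaled library sizes. SE is that of the log2 fold change, derived as its absolute value over the square root of the quasi-likelihood F. It therefore rests on variance shared across genes and not on the 2 samples per genotype alone. The correction for GC content and length used splines (6 degrees of freedom per covariate), fitted per library to deviations of log2 CPM (pseudocount 2) and passed to edgeR as offsets. The tests were tested on simulated data, drawn with the same dispersion for every gene and without library differences that follow GC content. That simulation cannot show how the calls behave where libraries differ in this way. The labels do not say whether same-numbered samples were paired, and the main fit did not pair them. Their deviations had a correlation of -0.16. That value cannot decide the question, because library differences within a genotype also followed GC content, in opposite directions (rho -0.75 and 0.39 over the 159 genes).

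Genes named were the 8 lowest and 8 highest fold changes with separate genotypes, the 4 highest levels per kb, the 3 lowest and highest GC contents, 4 role lists, the 3 genes on each side of the floor, the ends of each cluster with at least 3 genes, and in the corepressor list Trim28, Setdb1 and the 3 smallest p-values. Members and lists were chosen with earlier results of these data known. The KRAB pattern was loosened in steps against proteins known to carry the domain, after fold changes had been viewed; it misses Zfp93 and Zfp111, for example. Alternatives were DESeq2 size factors, other filters, a replicate block, leaving out each sample, DESeq2 1.42.0, limma-voom (limma 3.58.1), the correction, a stricter threshold and other floors; the crossed block and the corrected fits with a sample left out were added after the data were seen.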

Additional observations from a re-analysis of the deposited data

How the results depend on the processing

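With DESeq2 size factors, limma-voom, DESeq2 or a filter of 5 CPM, the counts of lower and higher Zfp genes and their median stayed within 1.5 times or 1 SD of the reported values, and without a filter 7 were higher. In the main edgeR fit no Zfp and no corepressor gene was called at an adjusted p below 0.01. The smallest adjusted p over the Zfp genes was 0.0130 in that fit. It was 0.00727 with the filter of 5 CPM, 0.00438 with the crossed replicate block and 7.58e-22 with the DESeq2 Wald test. With limma-voom, DESeq2 size factors, no filter or the replicate block it was 0.0133, 0.0138, 0.0215 and 0.0326. The replicate block left 45 lower and 1 higher, and 6 corepressor genes lower. Whether the replicate numbers pair the samples is not known. With the crossed replicate block 69 were lower and 27 higher. The correction alone left 10 lower, 4 higher, a median of -0.12, rho 0.27 and 1 corepressor gene lower. The correction with the replicate block gave 8 lower, 3 higher, a median of -0.12, rho 0.26 and 1 corepressor gene lower, and with the crossed block 14, 9, -0.12 and 0.26. Without 1 library, lower genes ranged from 0 (without KO2) to 64 (without WT1), with 35 without KO1 and 46 without WT2, and higher genes from 0 to 10, with 1 without KO1 and 2 without WT2; rho ranged from 0.81 to 0.87, the median of the low-GC genes from -2.70 to -1.79 and of the high-GC genes from 0.45 to 0.77. Corepressor genes ranged from 0 to 10 lower and 0 to 2 higher, and DESeq2 called 1 higher. With the correction and 1 library left out, the ranges were 0 to 16 lower, 0 to 3 higher, -0.14 to -0.031 for the median and 0.21 to 0.31 for rho (-0.047 and 0.29 without KO2). A lower floor, in 222 genes, gave 99 lower (median -1.04), a higher floor, in 107 genes, 41 lower, the floor on Npas3-/- samples 21 lower, a median of 0.23 and rho 0.75, and no floor 119 lower, -1.59 and 0.76. With mean GC over coding transcripts rho was 0.82. Corrected medians of the low-GC and high-GC genes were -0.34 and 0.073, and -0.26 and 0.073 with the block.

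These values changed sign with the correction, alone and with the replicate block: Zfp111 (0.94, 0.93), Zfp12 (0.066, 0.066), Zfp148 (0.22, 0.31), Zfp217 (0.057, 0.056), Zfp263 (0.18, 0.27), Zfp318 (0.14, 0.10), Zfp326 (0.38, 0.39), Zfp414 (-0.37, -0.38), Zfp423 (-0.12, -0.12), Zfp428 (-0.085, -0.057), Zfp451 (1.49, 1.51), Zfp516 (0.21, 0.21), Zfp560 (0.87, 0.87), Zfp568 (1.01, 1.04), Zfp579 (-0.51, -0.70), Zfp598 (-0.33, -0.33), Zfp606 (1.30, 1.27), Zfp61 (-0.082, -0.079), Zfp692 (-0.62, -0.59), Zfp706 (1.16, 1.16), Zfp93 (0.91, 0.91), and the medians of the clusters at Zfp628 to Zfp580 (-0.24, -0.24) and Zfp606 to Zfp446 (0.50, 0.49). Leaving out 1 library turned the sign of 7 genes that were not called: Zfp263 ranged from -0.56 to 0.48 (positive without WT2), Zfp335 from -0.33 to 0.16 (positive without WT1 or KO2), Zfp346 from -1.23 to 0.31 and Zfp516 from -0.24 to 0.088 (positive without KO2), Zfp579 from -0.97 (without KO2) to 1.02, Zfp410 from -0.029 (without WT1) to 0.076, and Zfp423 from -0.050 (without KO1) to 0.22. With the filter of 5 CPM Zfp410 was at -0.0087. The cause of these changes was not tested. Counting error is small at this depth, and the number of samples limits the precision.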
